A study of Homo sapiens with 17 samples.

Results

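Genes of oxidative phosphorylation were selected by symbol from the 57820 genes measured in each library, which gave 118 members. The symbols taken were those that start with MT- (genes of the mitochondrial DNA), those made of NDUFA, NDUFB, NDUFC, NDUFS or NDUFV and digits, and those that start with UQCR, ATP5 or COX4 to COX8. Symbols that end in P or in P and digits, and antisense genes, were left out. The members were 11 mitochondrially encoded mRNA genes, 2 mitochondrial rRNA genes, 21 mitochondrial tRNA genes and 84 nuclear genes, of which 39 belong to complex I, 9 to complex III, 17 to complex IV and 19 to complex V by symbol. Of the 37 symbols that start with MT-, the clause on P removed 3, and among these MT-ATP6 and MT-ATP8, subunits of ATP synthase, are given beside the members as non-members. The prefixes also brought in genes that are not regarded as subunits, among them COX7A2L, a factor of respiratory supercomplexes, ATP5J2-PTCD1, a transcript read through from one gene into the next, and ATP5S and ATP5SL, whose current symbols are DMAC2L and DMAC2.

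Oxidative phosphorylation passes electrons from NADH and succinate through the respiratory complexes of the inner mitochondrial membrane to oxygen, and ATP synthase (complex V) uses the resulting proton gradient to make ATP. Complexes I, III, IV and V are built from proteins of both genomes. They thus draw on mitochondrial transcripts, made from long polycistronic precursors by the polymerase POLRMT, and on nuclear transcripts made by RNA polymerase II. All mitochondrial mRNAs come from the heavy strand except MT-ND6, which lies on the light strand and is known to lack a stable poly-A tail.

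The study asked how enhancer e1, a noncoding element near the transcription factor gene SOX2, acts in squamous cancer. KYSE140, a line of esophageal squamous cell carcinoma, was given CRISPRi (a catalytically inactive Cas9 carrying a repressor fusion) with e1 guides or negative-control guides (NC), 2 libraries each. It was also given active Cas9 with SOX2 guides (3 libraries) or with guides to AAVS1 and a chromosome 2 site (2 libraries), or received ARV-771, which degrades BET bromodomain proteins, at 0.5 µM or DMSO for 6 h (2 libraries each). SKMES1, a line of lung squamous cell carcinoma, was given CRISPRa (dCas9 fused to VP64, with guides from the activator-recruiting pXPR502 vector) with e1 guides or NC guides, 2 libraries each.

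Poly-A RNA was sequenced, with a total expected count per library from 7260730 to 15781463, so that 3 counts stand at 0.19 to 0.413 CPM. SOX2 was measured first as a check of the labels. It stood at 365 to 379 TPM in CRISPRi controls and 120 to 128 TPM with e1 guides, at 397 to 428 TPM in knockout controls versus 103 to 221 TPM with SOX2 guides, at 223 to 236 TPM in DMSO and 9.8 to 10.5 TPM in ARV-771, and at 1.53 to 1.68 TPM in CRISPRa controls and 224 to 316 TPM with e1 guides. Of 8 markers of squamous epithelium, 8 exceeded 1 TPM in every KYSE140 library and 3 did so in every SKMES1 library. SKMES1 NC library 2 stood apart in KRT14 and TRIM29, with 118 and 13.4 TPM against at most 0.31 and 0.91 TPM in the other SKMES1 libraries. TP63, SFN and PKP1 were also highest there. KRT5 was lowest there (0.05 TPM against 0.87 to 1.26 TPM). KRT6A (2.7 TPM) and DSG3 (0.02 TPM) were exceeded in an e1 library (19.2 and 0.1 TPM). Chi-square divided by its degrees of freedom was 26.6 between both NC libraries, 12.4 between both CRISPRa e1 libraries, 6.35 and 12.4 between SOX2 guide 4 and the other SOX2 guides, and 2.16 to 2.96 in the remaining pairs, and the part of this in the results was not tested. The summed markers of fibroblasts, leukocytes and endothelium reached at most 6.39 TPM. Per the study's methods each guide was delivered by its own lentiviral infection of a stable parent line, so libraries of a guide group differ by guide, and libraries A and B of DMSO or ARV-771 carry no further label. P-values and standard errors rest on the spread between these libraries, moderated over all genes, and not on the libraries of a single gene alone.

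In the 6 KYSE140 control libraries, mitochondrial mRNAs were the more abundant class per unit of length. TPM is a length-corrected share of transcripts, so it allows levels of different genes to be compared. The median over the 11 mitochondrial mRNAs was 3270 TPM, against 186 TPM over the 84 nuclear members. The subunits of the catalytic core of complex IV led, with 7672 to 11216 TPM of MT-CO1 (chromosome M, 5904 to 7445 in GRCh37, plus strand) and 7149 to 10258 TPM of MT-CO2 (7586 to 8269), ranges that overlapped. MT-CYB, the mitochondrial subunit of complex III (14747 to 15887), stood at 2590 to 3905 TPM and MT-ND1, a membrane subunit of complex I (3307 to 4262), at 1770 to 2456 TPM. MT-ND6 (14149 to 14673, minus strand) was the lowest, at 50.3 to 82.5 TPM, and made up 0.0287% to 0.0776% of mitochondrial mRNA counts over all 17 libraries. The libraries were directional, but the strand setting of the counting was not given in the sources used here, so reads from the opposite strand of MT-ND6 cannot be told apart.

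Among nuclear members, the medians were 157 TPM for complex I, 183 TPM for complex III, 251 TPM for complex IV and 278 TPM for complex V. The highest was 1278 TPM (ATP5J2, named after its value was seen). All 21 mitochondrial tRNA genes were at 0 counts in each of the 17 libraries. With annotated lengths of 59 to 75 nt they are shorter than the sequenced fragments, whose mean length was 204.7 to 217.2 nt. Their zeros therefore set no upper limit on tRNA levels.

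**Figure D1:**
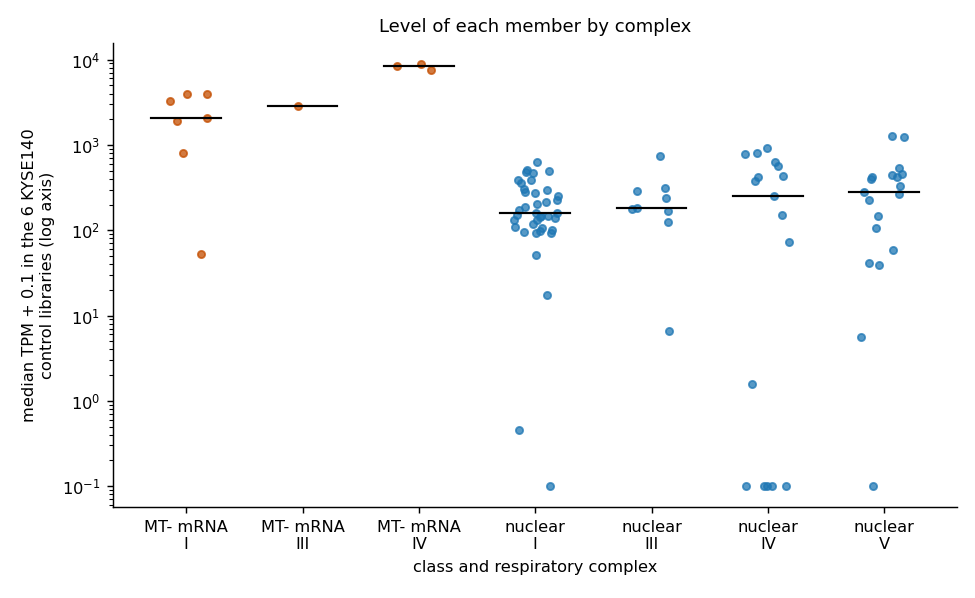
Median TPM in the 6 KYSE140 control libraries (log axis, 0.1 added) of each mitochondrial mRNA (orange) and nuclear member (blue), by respiratory complex, with a bar at the median of each column. The mitochondrial subunits of complex IV are the highest and MT-ND6 (52.8 TPM) is the lowest mitochondrial mRNA, while nuclear members of all complexes centre between 157 and 278 TPM.

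Several nuclear subunits of complex IV exist as a common and a tissue-restricted isoform, and the common ones carried the signal. COX4I1 stood at 747 to 825 TPM in the KYSE140 controls, whereas COX4I2, its lung and hypoxia-linked counterpart, was at 0 in every library. COX6A1 stood at 565 to 711 TPM and its muscle form COX6A2 did not exceed 0.42 TPM in any library. COX7A2 stood at 352 to 414 TPM and the muscle form COX7A1 was at 0 throughout, as was COX7B2. COX8A stood at 688 to 886 TPM and COX8C reached 0.77 TPM at most. COX6B1 stood at 504 to 691 TPM and its testis form COX6B2 at 0.99 to 2.34 TPM. In SKMES1 one control library had 8.37 TPM of COX6B2 and the other 0.81 TPM. UQCRHL, listed among the isoforms to be named, is not a symbol of these tables.

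Reads that fit several genes were divided among them by the authors' program, which leaves counts that are not whole. That occurred in at least 1 library for 8 of the 11 mitochondrial mRNAs and for 45 of the 81 nuclear members with counts. MT-CO1 and MT-ND2 had such counts in all 17 libraries, so part of their reads also fitted other genes and their levels carry that uncertainty, whereas MT-ND3, MT-ND4L and MT-ND6 were whole throughout. NDUFA7, NDUFB8 and UQCR11 were each listed under 2 overlapping identifiers, and the more abundant record is meant where no identifier is given.

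As a share of each library, the mitochondrial mRNAs took 1.58% to 3.56% of expected counts and the nuclear members 0.641% to 1.56%. The mitochondrial share was 2.57% and 2.86% in the CRISPRi controls and 1.93% and 2.22% with e1 guides. It was 2.04% and 2.17% in AAVS1 and chromosome 2 controls and 1.58%, 1.64% and 2.15% with SOX2 guides 2, 3 and 4. DMSO libraries had 2.32% and 2.43%, and ARV-771 libraries 3.51% and 3.39%. In SKMES1 the share was 2.45% and 2.91% with NC guides and 3.39% and 3.56% with e1 guides. The groups of e1 repression, ARV-771 and e1 activation were thus separate, whereas the library of SOX2 guide 4 lay between both knockout controls.

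The nuclear share followed the mitochondrial one in ARV-771 but not in SKMES1. It was 0.963% and 0.938% in the CRISPRi controls and 0.825% and 0.819% with e1 guides, and 0.897% and 0.827% in the knockout controls against 0.682%, 0.658% and 0.641% with SOX2 guides. It was 1.13% and 1.09% in DMSO and 1.56% and 1.55% in ARV-771. In SKMES1 the NC libraries had 0.765% and 0.652% and the e1 libraries 0.72% and 0.684%, which overlapped. These are bulk libraries of cultured cells, so fewer cells expressing a gene and less RNA of it per cell cannot be told apart.

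**Figure D2:**
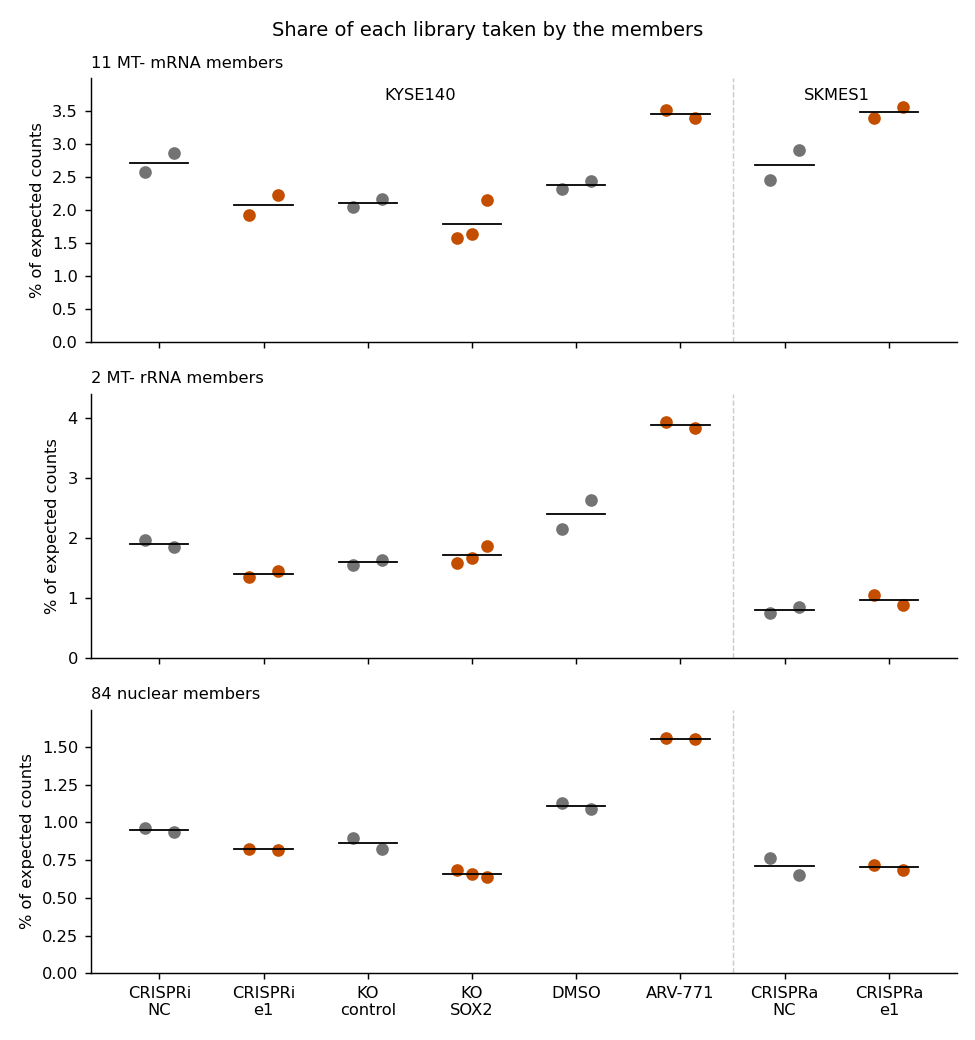
Percent of expected counts taken by the 11 mitochondrial mRNAs, the 2 mitochondrial rRNAs and the 84 nuclear members in each library (points, grey for controls and orange for perturbed groups, bars at group means, KYSE140 left and SKMES1 right of the dashed line). The ARV-771 libraries are the highest for nuclear members (1.56% and 1.55%) and rRNA, and SKMES1 libraries are the lowest for rRNA.

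The log2 ratio of mitochondrial to nuclear counts within a library needs no scaling between libraries. It was 1.51 ± 0.14 (SD, n = 2) in CRISPRi controls and 1.33 ± 0.15 (SD, n = 2) with e1 guides, a difference of -0.18 with overlapping groups that ranged from -0.29 to -0.07 with 1 library left out. Knockout controls had 1.29 ± 0.15 (SD, n = 2) and SOX2 guides 1.43 ± 0.28 (SD, n = 3), a difference of 0.14 with overlapping groups, which was -0.02 without SOX2 guide 4. DMSO had 1.1 ± 0.09 (SD, n = 2) and ARV-771 1.15 ± 0.03 (SD, n = 2), which overlapped and differed by 0.05, so the fold between the classes moved by 3.73%. With 1 library left out that difference ranged from -0.01 to 0.12. The e1 guides of CRISPRa had 2.31 ± 0.1 (SD, n = 2) against 1.92 ± 0.34 (SD, n = 2) with NC guides, a difference of 0.39 without overlap, which was 0.15 without NC library 1 and 0.63 without NC library 2. The SKMES1 controls exceeded the 6 KYSE140 controls, at 1.3 ± 0.21 (SD, n = 6), by 0.62 without overlap. No test was run on this ratio. It moved with single SKMES1 libraries, because the difference between lines was 0.86 without NC library 1 and 0.38 without NC library 2, and with members whose counts were whole it was 1.07.

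**Figure D3:**
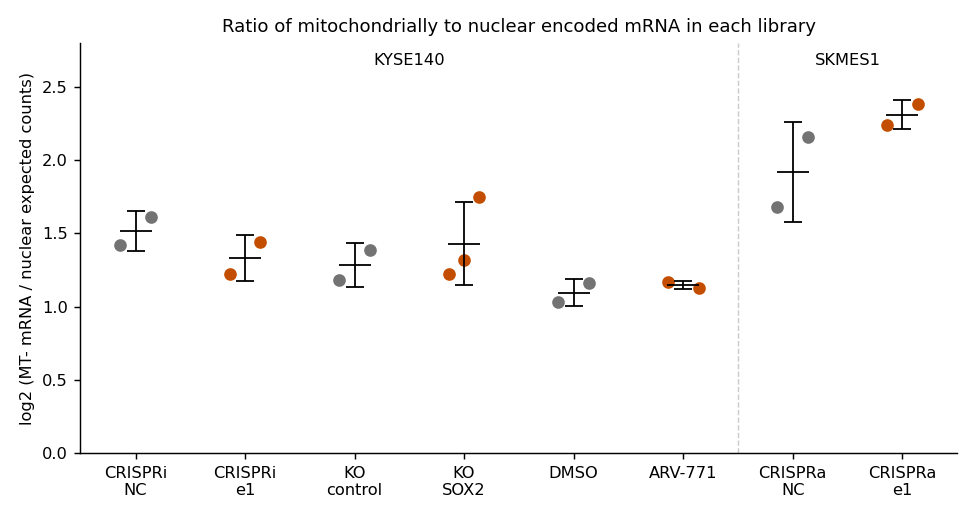
The log2 ratio of summed mitochondrial mRNA counts to summed nuclear counts in each library (points), with group means and SD (black), grey for controls and orange for perturbed groups. KYSE140 libraries lie between 1.03 and 1.75 and SKMES1 libraries between 1.68 and 2.38, and the NC libraries of SKMES1 lie apart, at 1.68 and 2.16.

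Repression of e1 addressed which transcripts depend on the enhancer. Calls of risen or fallen required an adjusted p below 0.05 together with a change of more than 1.5-fold. Mitochondrial mRNAs were slightly lower with e1 guides, with a median log2 fold change of -0.33 over 11 genes (range -0.41 to 0.02) against a median of 0.00 over all genes tested. None of the 11 was called by the quasi-likelihood test of edgeR, by DESeq2 or by limma, although 10 had an unadjusted p under 0.05 and 9 an adjusted p under 0.05 without the fold criterion, each of them lower. Over all genes, 10.7% were called lower and 9.3% higher. Without the fold criterion, 3045 of the 13792 genes tested were lower and 3058 higher at an adjusted p under 0.05. Counts at an unadjusted p are given here and below without a share over all genes.

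MT-CO1 stood at 9775 and 11216 TPM in control libraries versus 7195 and 8509 TPM with e1 guides, so the groups did not overlap. Its log2 fold change was -0.40 (SE 0.06, edgeR quasi-likelihood test with Benjamini-Hochberg adjusted p = 9.8e-05). MT-CYB behaved alike, with 3286 and 3905 TPM against 2476 and 2855 TPM and a log2 fold change of -0.41 (SE 0.07, edgeR Benjamini-Hochberg adjusted p = 1.4e-04). MT-ND1 overlapped between groups, at 2059 and 2456 TPM against 1751 and 2086 TPM, with a log2 fold change of -0.21 (SE 0.08, edgeR Benjamini-Hochberg adjusted p = 0.0303). MT-ND6 showed no such difference, at 58.5 and 82.5 TPM in control libraries and 63.2 and 77.5 TPM with e1 guides (0.02, SE 0.17). The non-members MT-ATP6 and MT-ATP8 had log2 fold changes of -0.41 and -0.35. With limma on TPM, the Benjamini-Hochberg adjusted p was larger, at 0.032 for MT-CO1, 0.034 for MT-CYB and 0.19 for MT-ND1.

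The rRNA of the small subunit of the mitochondrial ribosome, MT-RNR1 (chromosome M, 648 to 1601), fell. It stood at 3661 and 3899 TPM in control libraries versus 2240 and 2354 TPM with e1 guides, a log2 fold change of -0.70 (SE 0.05, edgeR quasi-likelihood test with Benjamini-Hochberg adjusted p = 5.1e-09). MT-RNR2, the large-subunit rRNA (1671 to 3229), was lower by less, at 18080 and 17086 TPM against 12857 and 13920 TPM (-0.38, SE 0.04), under the fold criterion. Mature mitochondrial rRNA carries at most a short A-tail, so selection of poly-A RNA recovers it only in part.

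Of the 76 nuclear members tested, 2 fell and none rose. At an adjusted p under 0.05 without the fold criterion, 46 of them were lower and 3 higher. Over all 13792 genes tested, 3045 were lower and 3058 higher at that threshold. At an unadjusted p under 0.05, 50 nuclear members were lower and 4 higher, and DESeq2 also called 2 lower and none higher. Their median was -0.21 and it was similar for complexes I (-0.24), III (-0.22), IV (-0.20) and V (-0.17). NDUFA7, an accessory subunit of complex I (chromosome 19, 8373652 to 8386259, minus strand), fell from 148 and 147 TPM to 79.8 and 84.7 TPM, with a log2 fold change of -0.80 (SE 0.10, edgeR Benjamini-Hochberg adjusted p = 1.1e-05). Its overlapping record (ENSG00000167774) was at 0 in every library but e1 guide 1, where it had 23.2 TPM, and the part of this in the difference was not tested. ATP5I, a membrane subunit of ATP synthase (chromosome 4, 666225 to 668119, minus strand), fell from 400.1 and 403 TPM to 218 and 265 TPM, with a log2 fold change of -0.70 (SE 0.10, edgeR Benjamini-Hochberg adjusted p = 5.6e-05). Without the library of e1 guide 1 its log2 fold change was -0.57 and it was no longer called, whereas NDUFA7 was called with any 1 library left out. The count of nuclear members called was 4 without control library 2 and 4 without e1 library 2, in both cases because ATP5G2 (-0.62) and the second NDUFA7 record, which was then tested and higher, were added.

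The nuclear members fixed as 1 per complex moved little. COX4I1 was at 822 and 785 TPM against 695 and 715 TPM (-0.17, SE 0.05) and ATP5A1, the alpha subunit of the catalytic head of ATP synthase, at 349 and 361 TPM against 272 and 288 TPM (-0.32, SE 0.05), both without overlap. NDUFB8 (-0.09, SE 0.07) and UQCRC2, a core subunit of complex III (0.06, SE 0.06), overlapped between groups. COX7A2L, a factor of respiratory supercomplexes, went the other way, from 58.8 and 63.4 TPM to 83.4 and 76.2 TPM (0.40, SE 0.09), below the fold criterion. Among genes around the pathway, 6 genes of complex II and cytochrome c gave no call (median -0.13), 35 assembly factors gave 1 risen and none fallen (median -0.13), and 24 genes of mitochondrial DNA expression and biogenesis gave 2 risen and none fallen (median 0.13). The list of complex II and cytochrome c also held CYC1, a complex III subunit whose symbol the member rule does not take. The risen shares of the latter 2 lists were 2.86% and 8.33%, not above the 9.3% of all genes called higher. The risen ones were SDHAF2, an assembly factor of complex II (37 to 65.1 TPM, 0.67, SE 0.12), C10orf2, the mitochondrial helicase (12.6 to 19.2 TPM, 0.65, SE 0.10), and ESRRA, a nuclear receptor of mitochondrial genes (48.1 to 70.5 TPM, 0.65, SE 0.07). Cytosolic ribosomal proteins had a median of -0.02 over 73 genes with none called.

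SOX2 knockout with active Cas9 addressed the same pathway downstream of SOX2 itself. The mitochondrial mRNAs were centred on no change, with a median log2 fold change of 0.01 (range -0.45 to 0.16) beside -0.01 over all genes, and the nuclear members were lower, with a median of -0.20. No mitochondrial mRNA was called by edgeR or DESeq2, limma called 1 lower, and 2 had an unadjusted p under 0.05, both lower. Of 76 nuclear members 3 fell and none rose, with 31 lower and 2 higher at an adjusted p under 0.05, 37 lower and 4 higher at an unadjusted p under 0.05, and 3 lower and none higher by DESeq2. Over all genes, 13.5% were called lower and 16.3% higher. Without the fold criterion, 3432 of the 13978 genes tested were lower and 3691 higher at an adjusted p under 0.05.

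The direction of the mitochondrial mRNAs depended on the scaling, since all 11 were lower with scaling to library size alone (median -0.18) and on the TPM scale (median -0.23), where the medians of all genes were -0.21 and -0.17. It also depended on the library of SOX2 guide 4, without which the median was -0.19. Under these scales the nuclear medians were -0.40 and -0.39. The 10 most abundant genes took 9.83% to 10.7% of counts with SOX2 guides and 6.23% to 6.25% in the knockout controls, and the part of this in the results was not tested.

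MT-CO1 stood at 7672 and 8213 TPM in control libraries versus 5765, 6114 and 8337 TPM with SOX2 guides 2, 3 and 4, with a log2 fold change of -0.04 (SE 0.10). MT-CYB stood at 2590 and 2885 TPM against 2092, 2244 and 3175 TPM (0.07, SE 0.12) and MT-ND1 at 1770 and 1961 TPM against 1397, 1517 and 2161 TPM (0.05, SE 0.13). In all of these the library of guide 4 was the highest of the SOX2 libraries and exceeded both controls, so the groups overlapped. MT-ND6 did not overlap, at 50.4 and 50.3 TPM against 25.8, 31.2 and 39.9 TPM, but its log2 fold change of -0.45 (SE 0.20, edgeR Benjamini-Hochberg adjusted p = 0.0771) did not pass. Without the library of guide 4 it was called, at -0.61 (edgeR Benjamini-Hochberg adjusted p = 0.0168), as it was with library size alone and on the TPM scale (-0.65 in both). MT-RNR1 (0.21, SE 0.09) and MT-RNR2 (0.31, SE 0.06) were not called.

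All 3 nuclear members that fell are accessory subunits of complex I, which held 37 of the 76 tested. The fallen share of complex I was 8.11%, below the 13.5% of all genes called lower. Medians were -0.22 for complex I, -0.15 for III, -0.11 for IV and -0.21 for V. NDUFB6 (chromosome 9, 32552997 to 32573160, minus strand) stood at 87.9 and 79.1 TPM in control libraries versus 45.2, 39.5 and 35.4 TPM with SOX2 guides, with a log2 fold change of -0.74 (SE 0.12, edgeR quasi-likelihood test with Benjamini-Hochberg adjusted p = 3.1e-04). NDUFA5 (chromosome 7, 123177051 to 123197958, minus strand) stood at 133 and 124.5 TPM against 75.8, 64.7 and 79.7 TPM (-0.70, SE 0.09, edgeR Benjamini-Hochberg adjusted p = 2.5e-05). NDUFC1 (chromosome 4, 140188034 to 140223705, minus strand) stood at 127 and 128 TPM against 79.1, 64.8 and 76.7 TPM (-0.61, SE 0.13, edgeR Benjamini-Hochberg adjusted p = 0.00179). Both NDUFA5 and NDUFB6 were called with any 1 library left out, whereas NDUFC1 was not called without control library 1 (-0.58) or without the library of guide 3 (-0.54).

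Of the nuclear members taken as 1 per complex, those of complexes IV and V differed most, below the fold criterion. ATP5A1 stood at 277 and 271 TPM against 173, 179 and 188 TPM (-0.39, SE 0.07) and COX4I1 at 756 and 747 TPM against 522, 573 and 559 TPM (-0.26, SE 0.07). NDUFB8 had a log2 fold change of -0.20 (SE 0.08) and UQCRC2 of -0.06 (SE 0.08). ATP5A1 was past the fold criterion under library size alone (-0.59) and on the TPM scale (-0.60). COX8A had -0.23 (SE 0.08), while COX6A1 (-0.03, SE 0.10), COX6B1 (0.03, SE 0.08) and COX7A2 (0.04, SE 0.11) lay near 0. Around the pathway, SDHA, the flavoprotein of complex II, fell from 134 to 66.4 TPM (-0.74, SE 0.07), the only call among 6 genes of complex II and cytochrome c. Of 24 genes of mitochondrial DNA expression and biogenesis 4 fell and none rose (median -0.16), a share of 16.7%, near the 13.5% of all genes called lower. The fallen ones included TFAM, which packages mitochondrial DNA and starts its transcription (78.9 to 38.9 TPM, -0.77, SE 0.09), and TFB1M, an rRNA methyltransferase (17.9 to 5.73 TPM, -1.20, SE 0.19). Of 35 assembly factors 2 rose and 2 fell (5.71% each, below the 16.3% and 13.5% over all genes, median -0.14), with SCO2 at 38.5 and 73.3 TPM (1.10, SE 0.16) and ATPAF1 at 61.1 and 27.4 TPM (-1.10, SE 0.10). Lists outside the respiratory complexes were also lower. Mitochondrial ribosomal proteins had a median of -0.17, with 61 of 76 negative and 5 fallen (6.58%). Cytosolic ribosomal proteins had a median of -0.10, with 62 of 73 negative and none called. Glycolysis genes had a median of -0.14, with 3 of 19 risen and 3 fallen (15.8% each).

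Whether the effect of e1 repression differed from that of SOX2 knockout was tested as an interaction over the 9 libraries of these 4 groups, which share no control library. These effects also come from separate experiments with different Cas9 systems (repressor fusion or active Cas9). In this contrast, target, system and experiment cannot be told apart. Of all genes, 8.37% were called lower and 8.21% higher in this contrast, and 3 members were lower. MT-RNR1 differed by -0.89 (SE 0.11, edgeR quasi-likelihood test with Benjamini-Hochberg adjusted p = 6.9e-05) and MT-RNR2 by -0.67 (SE 0.08, edgeR Benjamini-Hochberg adjusted p = 5.0e-05). They were called with any 1 library left out. The complex I subunit NDUFB3 differed by -0.63 (SE 0.17, edgeR Benjamini-Hochberg adjusted p = 0.0134). NDUFB3 was not called without CRISPRi control 2 (-0.58), e1 guide 1 (-0.56), knockout control 2 (-0.50) or SOX2 guide 4 (-0.58), and 5 members were called without knockout control 1. MT-RNR2 and NDUFB3 were named here after their values were seen. Of the 11 mitochondrial mRNAs, 2 had an adjusted p under 0.05 and none was called, with a median of -0.28. Of all 14455 genes tested, 1868 were lower and 2142 higher at that adjusted p. The nuclear members had a median of 0.02. For NDUFA5 the difference was 0.39 (SE 0.12) and for NDUFA7 -0.41 (SE 0.13), both below the fold criterion, and for NDUFB6 (0.26, SE 0.16), NDUFC1 (0.12, SE 0.16) and ATP5I (-0.46, SE 0.19) it did not pass.

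**Figure D4:**
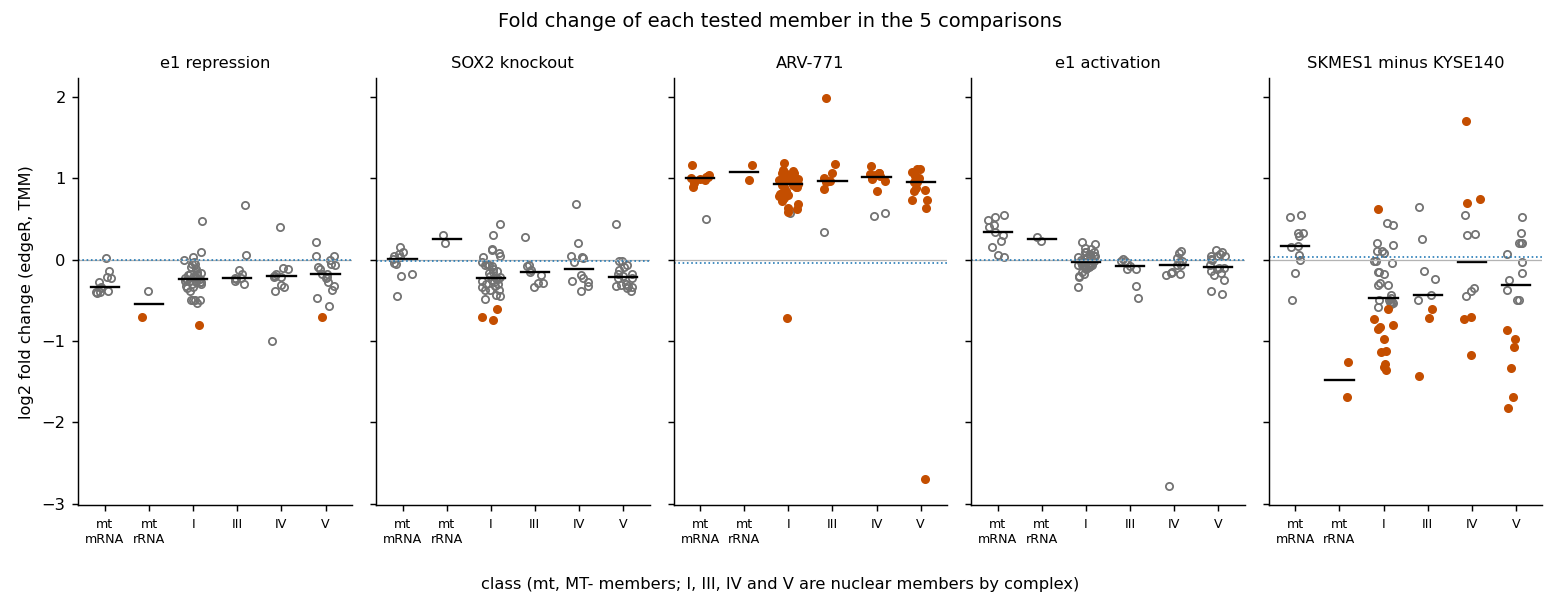
Log2 fold change (edgeR with TMM scaling) of each tested member in the 5 comparisons, for mitochondrial (mt) mRNA and rRNA and for nuclear members by complex (I, III, IV, V). Filled points were called, open points were not, black bars are class medians and the dotted line is the median of all genes tested. In ARV-771 nearly all members lie near 1, in e1 activation none is called, and between lines the rRNAs lie below -1.

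Degradation of BET proteins with ARV-771 for 6 h gave calls for most members with TMM scaling and for few of them on the TPM scale. With TMM scaling, which sets the bulk of genes to no change, 10 of the 11 mitochondrial mRNAs, both mitochondrial rRNAs and 70 of the 76 nuclear members tested rose, and 2 nuclear members fell. In this comparison 21.2% of all genes tested were called higher and 31.7% lower. The median log2 fold change was 1.00 for mitochondrial mRNAs (range 0.50 to 1.16) and 0.97 for nuclear members, against -0.04 for all genes. These values are relative to the other transcripts of a library, and their size depended on the scaling as set out after the members.

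MT-CO1 stood at 7858 and 8439 TPM in DMSO and at 9854 and 9746 TPM in ARV-771, without overlap, and its log2 fold change was 0.99 (SE 0.04, edgeR quasi-likelihood test with Benjamini-Hochberg adjusted p = 1.2e-16). MT-CYB stood at 2666 and 2793 TPM against 3345 and 3358 TPM (1.02, SE 0.04, edgeR Benjamini-Hochberg adjusted p = 1.2e-16) and MT-CO2 at 9449 and 10258 TPM against 12197 and 11901 TPM (1.03, SE 0.04, edgeR Benjamini-Hochberg adjusted p = 2.1e-16). MT-ND5, a membrane subunit of complex I, stood at 659 and 679 TPM against 785 and 835 TPM (1.00, SE 0.04, edgeR Benjamini-Hochberg adjusted p = 3.8e-16), and MT-ND1 at 1821 and 1887 TPM against 2099 and 2060 TPM (0.90, SE 0.04). In each of these genes every ARV-771 library exceeded every DMSO library.

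MT-ND6, the light-strand gene, was the exception. It stood at 52.8 and 52.9 TPM in DMSO and at 34.8 and 53.5 TPM in ARV-771, with overlapping groups, a TMM-scaled log2 fold change of 0.50 (SE 0.16) and -0.29 on the TPM scale, so its direction turned with the scaling. Without ARV-771 library A it was called, at 0.74. MT-RNR1 (0.98, SE 0.04) and MT-RNR2 (1.17, SE 0.06) rose, the latter from 18689 and 23694 TPM to 28977 and 28773 TPM. The non-members MT-ATP6 (1.00, SE 0.04) and MT-ATP8 (0.99, SE 0.05) also rose.

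Nuclear members of every complex rose by similar amounts, with medians of 0.93 for complex I (35 of 37 risen, 1 fallen), 0.97 for complex III (8 of 9 risen), 1.01 for complex IV (10 of 12 risen) and 0.95 for complex V (17 of 18 risen, 1 fallen). ATP5B, the catalytic beta subunit of ATP synthase (chromosome 12, 57031959 to 57039768, minus strand), stood at 1282 and 1248 TPM in DMSO and at 1457 and 1506 TPM in ARV-771 (0.95, SE 0.04, edgeR Benjamini-Hochberg adjusted p = 3.5e-16). NDUFB8 stood at 292 and 309.7 TPM against 404 and 373 TPM (1.09, SE 0.06), UQCRC2 at 194 and 219 TPM against 242 and 226 TPM (0.95, SE 0.05), COX4I1 at 825 and 798 TPM against 967 and 989 TPM (0.99, SE 0.05), and ATP5A1 at 331 and 337 TPM against 362 and 369 TPM (0.85, SE 0.04). Of the isoforms, COX6A1 (1.03, SE 0.05), COX6B1 (0.97, SE 0.05), COX7A2 (1.15, SE 0.07) and COX8A (1.00, SE 0.06) rose. COX7A2L (0.58, SE 0.08) lay just outside the fold criterion, was called without DMSO library A (0.61), and was lower on the TPM scale, at 73.6 and 70.1 TPM against 64.3 and 66.0 TPM. The second record of UQCR11 (ENSG00000267059), with 53.7 and 0 counts in DMSO, had the largest log2 fold change among risen members, 1.99 (SE 0.51), and was not called without ARV-771 library A (2.06) or B (1.92). It was named after its value was seen.

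NDUFV3, a small accessory subunit of complex I, fell. It stood at 18.1 and 17.8 TPM in DMSO and at 4.71 and 5.13 TPM in ARV-771, with a log2 fold change of -0.72 (SE 0.13, edgeR quasi-likelihood test with Benjamini-Hochberg adjusted p = 2.4e-05) in counts and of -1.68 on the TPM scale. Its expected counts were 285 and 277 in DMSO and 122 and 138 in ARV-771, so the count and the TPM gave different sizes of the same direction. The other fallen member was the readthrough transcript ATP5J2-PTCD1, at 5.64 and 8.37 TPM against 1.17 and 0.26 TPM (-2.69, SE 0.33), whose counts were not whole in any of the 17 libraries and which shares exons with ATP5J2, a gene that rose. It was named after its value was seen.

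The size of the rise depended on how libraries were scaled. Scaling factors add 1 constant to the log2 fold change of every gene, so they cannot move the gap between classes or to other genes, whereas TPM is another measure and did move the latter. With scaling to library size alone the medians were 0.54 for mitochondrial mRNAs, 0.51 for nuclear members and -0.50 for all genes, and 1 mitochondrial mRNA (MT-ND3, named after its value was seen), 1 rRNA and 20 nuclear members rose. On the TPM scale with limma the medians were 0.27, 0.24 and -0.60, and 1 nuclear member rose and 2 fell. The direction was positive for 10 of 11 mitochondrial mRNAs and 66 of 76 nuclear members on the TPM scale, and for 11 of 11 and 73 of 76 with library size alone. With 1 library left out, the difference between the class medians ranged from -0.01 (without DMSO library A) to 0.10 (without DMSO library B). Relative to the median of all genes, the mitochondrial mRNAs were higher by 1.04, 1.04 and 0.87 and the nuclear members by 1.01, 1.01 and 0.84 under TMM, library size and TPM. Of all calls, 40.0% were higher with TMM, 5.9% with library size alone and 1.89% on the TPM scale. The 10 most abundant genes took 10.1% and 9.92% of counts in ARV-771 and 6.73% and 7.22% in DMSO, and the part of this in the results was not tested.

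**Figure D5:**
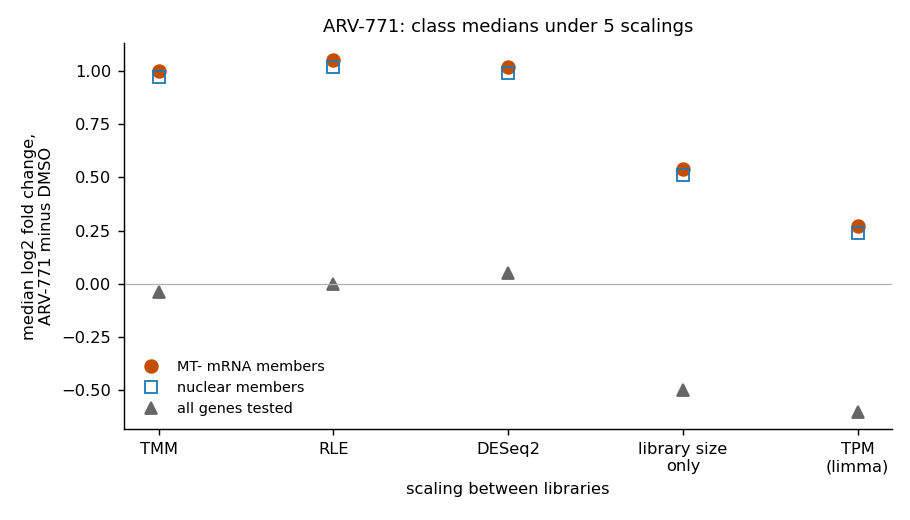
Median log2 fold change in ARV-771 against DMSO for mitochondrial mRNAs (orange circles), nuclear members (blue squares) and all genes tested (grey triangles) under 5 scalings between libraries. The medians are 1.00 and 0.97 with TMM and 0.27 and 0.24 on the TPM scale, while the median of all genes moves from -0.04 to -0.60.

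Other transcripts near the pathway divided into those that moved with the members, wholly or in part, and those that did not. Over all genes, 21.2% were called higher and 31.7% lower. All 6 genes of complex II and cytochrome c rose (median 0.77), although SDHA (160 to 147 TPM, 0.60, SE 0.05) was lower in TPM, including SDHC (163 to 197 TPM, 0.98, SE 0.06) and the electron carrier CYCS (661 to 671 TPM, 0.74, SE 0.04). Glycolysis genes behaved alike, with 13 of 19 risen and 1 fallen (median 0.86), and of 73 cytosolic ribosomal protein genes 72 rose (median 1.05). Mitochondrial ribosomal proteins moved with the members in part, with 26 of 76 risen (34.2%) and 6 fallen (7.89%, median 0.46). So did assembly factors, with 13 of 35 risen (37.1%) and 7 fallen (20%, median 0.43). Among the latter PET100 (95.6 to 134 TPM, 1.25, SE 0.08) and SURF1 (44.1 to 60.9 TPM, 1.21, SE 0.09), both assembly factors of complex IV, rose, while SDHAF1 (20.2 to 2.04 TPM, -2.56, SE 0.23) and SCO2, a copper chaperone of complex IV (35.2 to 4.48 TPM, -2.21, SE 0.18), fell.

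Genes of mitochondrial DNA expression and biogenesis went against the members, with 13 of 24 fallen (54.2%), 3 risen (12.5%) and a median of -0.73, beside 31.7% fallen and 21.2% risen over all genes. PPRC1, a coactivator of nuclear-encoded mitochondrial genes, fell from 35.4 to 2.23 TPM (-3.04, SE 0.10, edgeR Benjamini-Hochberg adjusted p = 1.0e-17). NRF1, an activator of many nuclear genes for respiratory subunits, fell from 11.9 to 2.76 TPM (-1.70, SE 0.15), and GABPB1, a subunit of the ETS-family factor GABP with a similar role, from 20.2 to 3.54 TPM (-1.81, SE 0.14). MTPAP, the mitochondrial poly-A polymerase (21.8 to 4.93 TPM, -1.98, SE 0.13), C10orf2 (9.06 to 1.21 TPM, -2.31, SE 0.19) and TFB2M, a cofactor of mitochondrial transcription initiation (32.2 to 10.1 TPM, -0.99, SE 0.11), also fell. The risen ones were SLIRP (705 to 840 TPM, 1.01, SE 0.06) and LRPPRC (57.3 to 62.6 TPM, 0.85, SE 0.05), which together stabilise mitochondrial mRNA, and PNPT1, a mitochondrial exoribonuclease (21.8 to 20.4 TPM, 0.59, SE 0.08), whose TPM was lower.

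Promoters of the nuclear members are shown for letters of factors with binding motifs known from respiratory genes. A link between these letters and the change in ARV-771 was not tested. Of the 84 nuclear members, 64 matched a RefSeq promoter by current symbol (GRCh38.p14, a build other than the hg19 of the expression files), each of 300 bases from 250 before to 50 after the start. The NRF1 motif, written as GCGC, any base and TGCGC, was found on either strand in 14 of 64 (21.9%), against 11.8% of 9458 promoters of genes tested in ARV-771 and 6.28% of all 27305 promoters. CCGGAAG (ETS factors such as GABP) was in 17 (26.6%, against 19.4% and 10.7%), AAGATGGC (YY1) in 10 (15.6%, against 5.6% and 3.03%) and CACGTG (E-box, as bound by MYC) in 7 (10.9%, against 10.4% and 7.43%). ETS and YY1 letters did not overlap in any member, and 35 of 64 held at least 1 of the motifs. A match describes letters, not binding.

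The 8 stretches below run 5′ to 3′ on the gene's strand from 60 bases before to 25 after the start, with matches in capitals, and were chosen to show ETS letters in risen subunits of complexes I and IV, YY1 letters in risen subunits of complex I, both subunits called with e1 guides (NDUFA7 and ATP5I), and NDUFB8, which rose as well without any of these letters in its window.
COX4I1 (chr16:85799635-85799719, plus strand): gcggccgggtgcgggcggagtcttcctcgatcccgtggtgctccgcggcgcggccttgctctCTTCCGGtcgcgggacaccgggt
COX6B1 (chr19:35648263-35648347, plus strand): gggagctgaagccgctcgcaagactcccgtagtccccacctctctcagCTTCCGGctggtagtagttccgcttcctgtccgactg
COX5B (chr2:97646002-97646086, plus strand): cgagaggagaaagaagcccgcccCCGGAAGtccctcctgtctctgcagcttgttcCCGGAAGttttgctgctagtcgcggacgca
NDUFA13 (chr19:19516165-19516249, plus strand): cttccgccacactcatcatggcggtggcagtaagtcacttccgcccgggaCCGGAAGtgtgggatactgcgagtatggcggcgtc
NDUFA9 (chr12:4649054-4649138, plus strand): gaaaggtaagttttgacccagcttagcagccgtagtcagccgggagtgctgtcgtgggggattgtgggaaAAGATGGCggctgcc
NDUFA7 (chr19:8321351-8321435, minus strand): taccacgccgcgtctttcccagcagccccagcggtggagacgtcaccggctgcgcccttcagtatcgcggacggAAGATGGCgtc
ATP5I, now ATP5ME (chr4:674252-674336, minus strand): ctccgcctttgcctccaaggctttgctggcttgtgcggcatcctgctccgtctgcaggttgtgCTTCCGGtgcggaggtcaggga
NDUFB8 (chr10:100529899-100529983, minus strand): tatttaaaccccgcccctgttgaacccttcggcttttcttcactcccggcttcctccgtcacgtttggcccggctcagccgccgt

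Activation of e1 in SKMES1 asked for the reverse of repression in a line with little SOX2. All 11 mitochondrial mRNAs had a positive log2 fold change under each scaling tried (median 0.34, range 0.03 to 0.55), and the nuclear members were centred near 0 (median -0.05), but no member was called in either direction by edgeR, DESeq2 or limma. In this fit only 0.168% of all genes were called higher and 0.0202% lower. At an unadjusted p under 0.05 there were 4 mitochondrial mRNAs, all higher, and 3 nuclear members, all lower.

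MT-CO1 stood at 9534 and 12251 TPM with NC guides and at 13965 and 14534 TPM with e1 guides (0.34, SE 0.15, edgeR quasi-likelihood test with Benjamini-Hochberg adjusted p = 0.383). MT-CYB stood at 2016 and 2668 TPM against 3157 and 3663 TPM (0.49, SE 0.17, edgeR Benjamini-Hochberg adjusted p = 0.296) and MT-ND1 at 2452 and 3050.0 TPM against 3575 and 4067 TPM (0.43, SE 0.15, edgeR Benjamini-Hochberg adjusted p = 0.300). In these 3 genes every e1 library exceeded every NC library, and the NC libraries differed more from each other than the e1 libraries did. MT-ND6 stood at 51.0 and 75.7 TPM against 56.6 and 78.6 TPM (0.06, SE 0.26), with overlapping groups. Without NC library 2, MT-ND4, MT-ND4L and MT-ND5, named after their values were seen, were called higher (0.70, 0.88 and 0.69), and without NC library 1 the mitochondrial median was 0.17 and no mitochondrial mRNA was called.

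The fixed nuclear members differed by less than their errors or close to them, with NDUFB8 at -0.04 (SE 0.10), UQCRC2 at -0.11 (SE 0.09), COX4I1 at 0.11 (SE 0.11) and ATP5A1 at 0.01 (SE 0.14). COX6B2, the testis isoform, had the value farthest from 0, -2.78 (SE 1.02, edgeR Benjamini-Hochberg adjusted p = 0.321), with 104 counts in NC library 2, 9.92 counts in NC library 1 and 6.95 and 9.6 counts in the e1 libraries. It was called without NC library 1 (-3.60). The lists around the pathway had no call in this comparison, with medians of 0.00 (complex II and cytochrome c), -0.05 (assembly), -0.07 (mitochondrial DNA expression and biogenesis, and also mitochondrial ribosome), 0.03 (glycolysis) and -0.19 (cytosolic ribosome, 71 of 73 negative).

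Between the lines, the 2 SKMES1 controls were set against the 6 KYSE140 controls, a comparison in which line and vector system cannot be told apart. No mitochondrial mRNA was called by edgeR or DESeq2 (median 0.17), limma on TPM called 2 higher, and 4 had an unadjusted p under 0.05, 3 higher and 1 lower. Both mitochondrial rRNAs were lower in SKMES1. Of 76 nuclear members 23 were lower and 4 higher (median -0.38), in a fit in which 25.4% of all genes were called lower and 30.2% higher, so the share of members called lower was near the background and that called higher was under it.

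MT-RNR1 ranged from 2716 to 4205 TPM with a median of 3767 TPM in KYSE140 and stood at 1194 and 1257 TPM in SKMES1 (-1.69, SE 0.19, edgeR quasi-likelihood test with Benjamini-Hochberg adjusted p = 2.4e-05). MT-RNR2 was at 7406 and 9023 TPM in SKMES1 and at 14370 to 23694 TPM in KYSE140 (-1.26, SE 0.22). The mRNAs that follow them on the plus strand were not lower together, with MT-ND1 at 0.33 (SE 0.13), MT-CO1 at 0.16 (SE 0.15) and MT-CYB at -0.50 (SE 0.16). MT-ND6, on the minus strand, was near 0 (SE 0.22). With the CRISPRi controls alone as KYSE140 samples, MT-CYB was called lower (-0.74), as it was without NC library 2 (-0.69). The number of mitochondrial mRNAs called was 1 without DMSO library B, 1 without NC library 1 and 2 without NC library 2.

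Complex V held the nuclear member of smallest p. ATP5B ranged from 1007 to 1282 TPM in KYSE140 and stood at 417 and 388 TPM in SKMES1 (-1.69, SE 0.16, edgeR Benjamini-Hochberg adjusted p = 5.6e-06), while its partner in the catalytic head, ATP5A1, stood at 271 to 361 TPM and at 333 and 298 TPM (-0.16, SE 0.15) and was not called. Of the nuclear subunits of complex I, NDUFA9 (86.7 to 125 TPM against 41.4 and 50.5 TPM, -1.35, SE 0.14), NDUFB5 (244 to 308 TPM against 135 and 129.7 TPM, -1.28, SE 0.14) and NDUFA12 (239 to 261 TPM against 145 and 151 TPM, -0.85, SE 0.09) were lower and NDUFB3 (76.7 to 123 TPM against 173 and 153 TPM, 0.62, SE 0.17) was higher. NDUFB3 was not called without KO control 2 (0.55) or without NC library 1 (0.47).

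In complex IV the directions were split by gene. COX5B (219 to 315 TPM against 494 and 447 TPM, 0.70, SE 0.16) and COX7A2L (58.8 to 81.1 TPM against 137 and 123 TPM, 0.75, SE 0.13) were higher in SKMES1, whereas COX4I1 (747 to 825 TPM against 565 and 502 TPM, -0.71, SE 0.11) and COX6B1 (504 to 691 TPM against 298 and 280.1 TPM, -1.17, SE 0.17) were lower, all without overlap. COX6B2 was called higher (1.71, SE 0.59) on the strength of NC library 2 and reversed without it (-0.55). COX6A1 (0.30, SE 0.12), COX7A2 (0.55, SE 0.12, called at 0.61 without DMSO library A and at 0.63 without NC library 2), COX8A (-0.44, SE 0.14), NDUFB8 (-0.52, SE 0.10, called at -0.61 without NC library 1) and UQCRC2 (-0.49, SE 0.16) were under the fold criterion. Around the pathway, SDHA stood at 157 TPM on average in KYSE140 and 43.4 TPM in SKMES1 (-1.89, SE 0.16), one of 3 lower and 0 higher among 6 genes of complex II and cytochrome c. Of 73 cytosolic ribosomal protein genes 38 were lower and 1 higher, and of 77 mitochondrial ones 26 were lower and 3 higher. Of 35 assembly factors 12 were lower and 3 higher, of 25 genes of mitochondrial DNA expression and biogenesis 10 were lower and 3 higher, and of 19 glycolysis genes 5 were lower and 4 higher, beside 25.4% and 30.2% over all genes.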

How the data were processed

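Poly-A RNA was sequenced in 17 libraries of 8 groups taken from the sample labels. Per the labels and the study's methods, the authors aligned reads to hg19 (Bowtie2) and used RSEM to quantify GENCODE genes, both credited to the submitters' processing notes, with versions and strand setting not given in the sources used here. The deposited expected counts are estimated read counts per gene that are not normalized, and RSEM divides a read that fits several genes. The deposited TPM values are the authors' length-corrected shares of transcripts in a library. The deposited FPKM values were not used.

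The members, the lists and the rule for named genes were chosen with earlier results of these data known. Rounded expected counts entered edgeR 4.0.16 (R 4.3.3), with its quasi-likelihood test (TMM, filterByExpr with a minimum count of 10 and a minimum total of 15), only the groups compared entering a fit, with Benjamini-Hochberg adjustment over all genes tested. Calls required an adjusted p below 0.05 together with a change of more than 1.5-fold. Standard errors came from the log2 fold change and the F statistic. The genes named were 4 mitochondrial mRNAs, 1 nuclear member per complex, the complex IV isoforms, and per comparison up to 5 risen and 5 fallen members of smallest p whose groups did not overlap in TPM. Other members are marked where they stand, and genes named from the surrounding lists were chosen after their values were seen. Gene positions came from GENCODE release 44 mapped to GRCh37, and counts were called whole within 0.005.

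Alternatives were DESeq2 1.42.0, RLE factors, library size only, no low-count filter, no minimum or a 2-fold minimum, limma 3.58.1 with a trend on log2(TPM + 1) above a mean TPM of 1, all 17 libraries in one fit, a fit with a replicate block, and fits that each omit 1 library. Fits were tested on simulated data. Between replicates, chi-square divided by its degrees of freedom was 2.16 to 26.6, above sampling noise, so each library counted as 1 replicate. Counting floors (3 counts) cover counting error only.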

Additional observations from a re-analysis of the deposited data

Results flagged for a closer look

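The change of MT-RNR1 differed between the e1 repression and SOX2 knockout experiments, whose targets and Cas9 systems cannot be told apart. The difference between both effects was -0.89 on the log2 scale (SE 0.11, edgeR quasi-likelihood interaction test with Benjamini-Hochberg adjusted p = 6.9e-05).

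In 2 members, 1 of the 6 KYSE140 control libraries stood far from the other 5. For MT-ND6 the gap was 0.745 of the whole range, with 82.5 TPM in CRISPRi control 2. For COX8C it was 1.0 of the range, with 0.77 TPM in CRISPRi control 2 and 0 in the others, a level of very few reads. Chance alone marks about 1 in 20 groups in this way. That rate does not hold for COX8C, since reads in a single library fix its gap at 1.0 of the range.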

How the results depend on the processing

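Results are counts of members called unless stated. In e1 repression, nuclear calls were 2 and became 4 without a filter on low counts, 5 with limma on TPM, 49 without a minimum fold change and 0 at a fold over 2, and mitochondrial mRNA calls became 9 without a minimum. In SOX2 knockout, mitochondrial mRNA calls became 1 with library size only, with limma and without a minimum, and nuclear calls became 8, 5 and 33 there and 0 at a fold over 2. In ARV-771, mitochondrial mRNA calls became 1 with library size only, 0 with limma and 6 at a fold over 2, nuclear calls 22, 3 and 29, and the ratio of the classes 0.16 with whole-count members. In e1 activation, nuclear calls became 1 without a filter and 1 with all 17 libraries in one fit. Between lines, mitochondrial mRNA calls became 2 with limma, 2 with CRISPRi controls only and 4 without a minimum, nuclear calls 47 without a minimum and 12 at a fold over 2, and the ratio 1.07 with whole-count members. Without a minimum, 5000 of all 15532 genes were lower and 5599 higher between lines. In the interaction, calls became 11 without a minimum and 0 at a fold over 2. Where 1 library was left out, calls ranged from 2 to 4 (e1 repression, nuclear), 0 to 1 (knockout, mitochondrial mRNA), 0 to 3 and 0 to 1 (e1 activation, mitochondrial mRNA and nuclear), 0 to 2 (lines, mitochondrial mRNA) and 2 to 5 (interaction), and the ratio between lines from 0.38 to 0.86. COX6B2 between lines ranged from -0.55 to 2.54 and reversed. Over all alternatives, 157 recomputed counts and ratios stayed within 1.5-fold or the spread between replicates and 40 did not, and for single members 1250 recomputed values kept their direction and call, 34 lost and 20 gained the call and 1 reversed. The cause was not tested.

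With a replicate block, e1 repression gave 0 mitochondrial mRNA and 3 nuclear calls and ARV-771 10 and 72. Same-numbered libraries did not deviate together (correlation 0.02 over 11145 genes in e1 repression), so the numbers were not taken to pair samples. In e1 repression these are guide numbers. No block fit was run for the CRISPRa and knockout groups, which share fewer than 2 replicate numbers with their controls. Depth limits members under 0.413 CPM.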
